A study of Mus musculus with 2 samples.

Results

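The genes described are 9 members of the bone morphogenetic protein (BMP) system of the mouse thoracic aorta, taken by symbol from the 32287 features of the count matrices: the ligands *Bmp2*, *Bmp4*, *Bmp5* and *Bmp6*, the receptors *Bmpr1a* and *Bmpr2*, and the antagonists *Grem1*, *Chrdl1* and *Chrdl2*. They were measured by single-cell RNA-seq in 2 aortas of 1 group (n = 2), so cell types were compared within the same aortas and there was no treatment contrast. The donors were wild-type C57BL/6J males carrying *Myh11-CreERT2* and the mT/mG reporter (GFPiSMC mice), with intact TGF-β receptors. All had received tamoxifen (1 mg per day, 5 days, at 3 weeks of age), which switches the reporter to eGFP in smooth muscle cells (SMCs), and were studied at 12 weeks. Cells entered the libraries without selection for GFP, so the shares of cell types depend on digestion and sorting.

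BMPs are secreted dimers of the TGF-β superfamily. They assemble type I and type II receptor kinases at the cell surface, and the activated type I receptor phosphorylates SMAD1, SMAD5 and SMAD9, which induce *Id* genes and the feedback inhibitors *Smad6* and *Smad7*. Gremlins and chordin-like proteins bind BMPs outside the cell and keep them from their receptors. In blood vessels BMPR2 is best known as the receptor mutated in heritable pulmonary arterial hypertension.

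After filtering and removal of doublets, 6543 cells of aorta 1 and 4609 cells of aorta 2 were analysed, with a median of 5671 and 5392 unique molecular identifiers (UMIs, each counting 1 captured RNA molecule) per cell. Marker genes gave 7 cell types. These included 3916 SMCs, 2700 fibroblasts, 1512 endothelial cells, 430 mesothelial cells, 1494 myeloid cells and 985 lymphocytes (the seventh type was 37 erythroid cells), and every marker of those 6 types was highest in its own type in both aortas. The libraries shared 18 barcodes. Of the 9 genes, 8 passed the expression filter of the tests. The exception was *Bmp5*, a ligand of the BMP6 subgroup, with 2 UMIs in all analysed cells (1 in an SMC of aorta 1 and 1 in a mesothelial cell of aorta 2), which lies under the limit of 3 counts used here as the floor of detection. Levels are given as CPM, the UMIs of a gene per 1000000 UMIs of that cell type in that aorta. In this 3′ assay each molecule is counted once at its end, so levels were not divided by gene length.

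*Bmp4* (ENSMUSG00000021835, chromosome 14, 46383520 to 46390669 on GRCm38, minus strand) and *Bmp6* (ENSMUSG00000039004, chromosome 13, 38345107 to 38500302, plus strand) were the ligands with the most UMIs, 8525 and 2843, and both were highest in endothelial cells. *Bmp4* was measured at 1021 CPM in the endothelial cells of aorta 1 and 1123 CPM in those of aorta 2, against 131 and 111 CPM in fibroblasts, 52.2 and 62.8 CPM in mesothelial cells and 5.95 and 5.21 CPM in SMCs. The order endothelial, fibroblast, mesothelial held in each aorta without overlap. Lymphocytes, taken as a type that should lack *Bmp4*, had 6.36 and 13.3 CPM, so the level in SMCs was under theirs, but myeloid cells had 4.79 and 4.16 CPM, under that of SMCs. *Bmp6*, which encodes the ligand best known as the endothelial signal for hepcidin in the liver, was found at 452 and 478 CPM in endothelial cells. It reached no more than 15.2 CPM elsewhere among the structural cells, with 6.67 and 15.2 CPM in mesothelial cells, 5.75 and 9.0 CPM in fibroblasts and 1.00 and 0.420 CPM in SMCs. Mesothelial cells and fibroblasts overlapped between the aortas for *Bmp6*, and SMCs lay under the lymphocytes (1.67 and 3.32 CPM). Of the 17 *Bmp6* UMIs in SMCs of aorta 1, 9 lay in 15 cells of a subcluster led by endothelial genes such as *Ptprb*, *Cldn5* and *Cdh5*.

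Endothelial cells held 71.8% ± 5.69 of all *Bmp4* UMIs and 92.8% ± 0.333 of all *Bmp6* UMIs (mean ± SD, n = 2). Fibroblasts held 23.5% ± 5.13 of the *Bmp4* UMIs. The contribution of each cell type to such a total depends on how many of its cells were recovered. With each cell thinned to 1000 UMIs, *Bmp4* was found in 48.0% (aorta 1, exact binomial 95% interval from 44.4 to 51.5) and 46.7% (aorta 2, from 43.0 to 50.4) of endothelial cells, and *Bmp6* in 32.4% and 32.7%. Without thinning these shares were 68.8% and 65.0% for *Bmp4* and 59.1% and 58.1% for *Bmp6*. In thinned lymphocytes *Bmp4* was found in 0.643% and 0.826%, with a median depth of 4092 and 3895 UMIs against 3678 and 3016 UMIs in endothelial cells. Intervals of shares cover counting error only. In unthinned endothelial cells, 401 of 784 cells of aorta 1 and 342 of 728 cells of aorta 2 held both ligands, which was 86.6% and 80.9% of the cells with *Bmp6*.

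The proximal promoters of this endothelial pair are shown because both genes were highest in the same cells. The RefSeq promoter table (GRCm38.p6, 250 bases before to 50 bases after a gene's start) held 6 of the 9 genes. Capitals mark CGGAAG (searched on both strands), a core bound by ETS factors, many of which are active in endothelium.
Bmp4, chr14:46390620-46390919, minus strand: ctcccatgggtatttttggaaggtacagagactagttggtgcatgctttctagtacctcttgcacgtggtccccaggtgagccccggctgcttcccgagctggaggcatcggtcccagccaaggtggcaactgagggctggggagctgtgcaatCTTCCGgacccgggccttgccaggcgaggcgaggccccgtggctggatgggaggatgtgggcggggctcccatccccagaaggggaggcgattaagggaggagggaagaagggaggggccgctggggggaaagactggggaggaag
Bmp6, chr13:38345466-38345765, plus strand: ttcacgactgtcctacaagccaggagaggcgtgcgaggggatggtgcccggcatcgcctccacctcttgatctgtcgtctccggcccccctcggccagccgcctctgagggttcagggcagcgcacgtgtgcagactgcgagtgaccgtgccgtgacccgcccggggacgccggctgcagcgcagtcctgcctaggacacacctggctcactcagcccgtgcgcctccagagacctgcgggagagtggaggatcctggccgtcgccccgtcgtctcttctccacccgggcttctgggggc
The *Bmp4* window held 1 match and the *Bmp6* window none. RefSeq places the start of *Bmp6* downstream of the gene start given above. Of 32851 promoters of the same length, 16.9% held this motif on either strand. A motif of the GATA factors, with the letters AGATAA and searched the same way, lay in neither window and in 11.2% of promoters. Both windows were rich in G and C (64.0% and 69.3%).

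*Bmp2* (ENSMUSG00000027358, chromosome 2, 133552159 to 133562885), which encodes the ligand closest to BMP4, had another distribution, with 1017 UMIs in all. Its level was 32.4 and 29.7 CPM in myeloid cells, 17.6 and 15.5 CPM in fibroblasts, 13.9 and 12.9 CPM in SMCs and 3.45 and 4.38 CPM in endothelial cells. These 4 types did not overlap between aortas. Mesothelial cells differed between the aortas, with 10 UMIs (5.55 CPM) and 1 UMI (1.01 CPM), and lymphocytes were at 1.67 and 1.66 CPM. Thus the type with the highest *Bmp4* and *Bmp6* was among those with the lowest *Bmp2*. SMCs gave 38.7% ± 2.23 of the *Bmp2* UMIs, myeloid cells 29.4% ± 2.02 and fibroblasts 27.3% ± 0.421 (SD, n = 2).

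*Bmpr1a* (ENSMUSG00000021796, chromosome 14, 34410734 to 34503341), the gene of a type I receptor used by BMP2 and BMP4, was measured in every structural cell type. It was at 163 and 171 CPM in mesothelial cells, 148 and 143 CPM in SMCs, 105 and 97.8 CPM in fibroblasts and, lowest, 80.1 and 78.8 CPM in the endothelium, and these neighbours did not overlap. *Bmpr2* (ENSMUSG00000067336, chromosome 1, 59763400 to 59879014), the gene of the BMP type II receptor, had nearly the opposite order. It was at 313 and 340 CPM in the endothelium, 149 and 155 CPM in fibroblasts, 109 and 98.2 CPM in mesothelial cells and 90.4 and 90.1 CPM in SMCs. Myeloid cells were at 57.0 and 43.5 CPM for *Bmpr2* and 12.9 and 11.6 CPM for *Bmpr1a*. Lymphocytes were lowest for both receptors, at 8.37 and 13.3 CPM and at 5.02 and 8.30 CPM. At 1000 UMIs per cell, *Bmpr2* was found in 26.8% and 29.1% of endothelial cells and 8.0% and 8.10% of SMCs, whereas *Bmpr1a* was found in 7.53% and 7.83% of endothelial cells and 13.9% and 12.0% of SMCs.

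The antagonists were highest outside the endothelium. *Chrdl1* (ENSMUSG00000031283, chromosome X, 143285674 to 143394262), which encodes chordin-like 1, was at 121 and 119 CPM in fibroblasts and 128 and 120 CPM in mesothelial cells, which overlapped. SMCs had 6.13 and 5.38 CPM, lymphocytes 0.670 and 2.21 CPM, and endothelial cells 2 UMIs and 1 UMI. Of the 168 *Chrdl1* UMIs in SMCs, 68 lay in a subcluster of mixed content (SMC subcluster 4, described below), without which SMCs were at 3.32 and 4.0 CPM. *Chrdl2* (ENSMUSG00000030732, chromosome 7, 100006172 to 100034728), its paralog, was at 9.49 and 8.15 CPM in SMCs, which held 95.6% ± 4.52 of its 268 UMIs (SD, n = 2). Fibroblasts had 0 and 2 UMIs of *Chrdl2*, mesothelial cells 1 and 6, and endothelial cells 0. *Grem1* (ENSMUSG00000074934, chromosome 2, 113746164 to 113758646), which encodes gremlin 1, was the rarest of the genes tested, with 187 UMIs in 91 cells. SMCs had 79 and 87 UMIs (4.66 and 7.31 CPM), fibroblasts 17 and 4 UMIs (1.71 and 0.600 CPM), and no UMI was found in endothelial, mesothelial or myeloid cells or in lymphocytes.

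**Figure D1:**
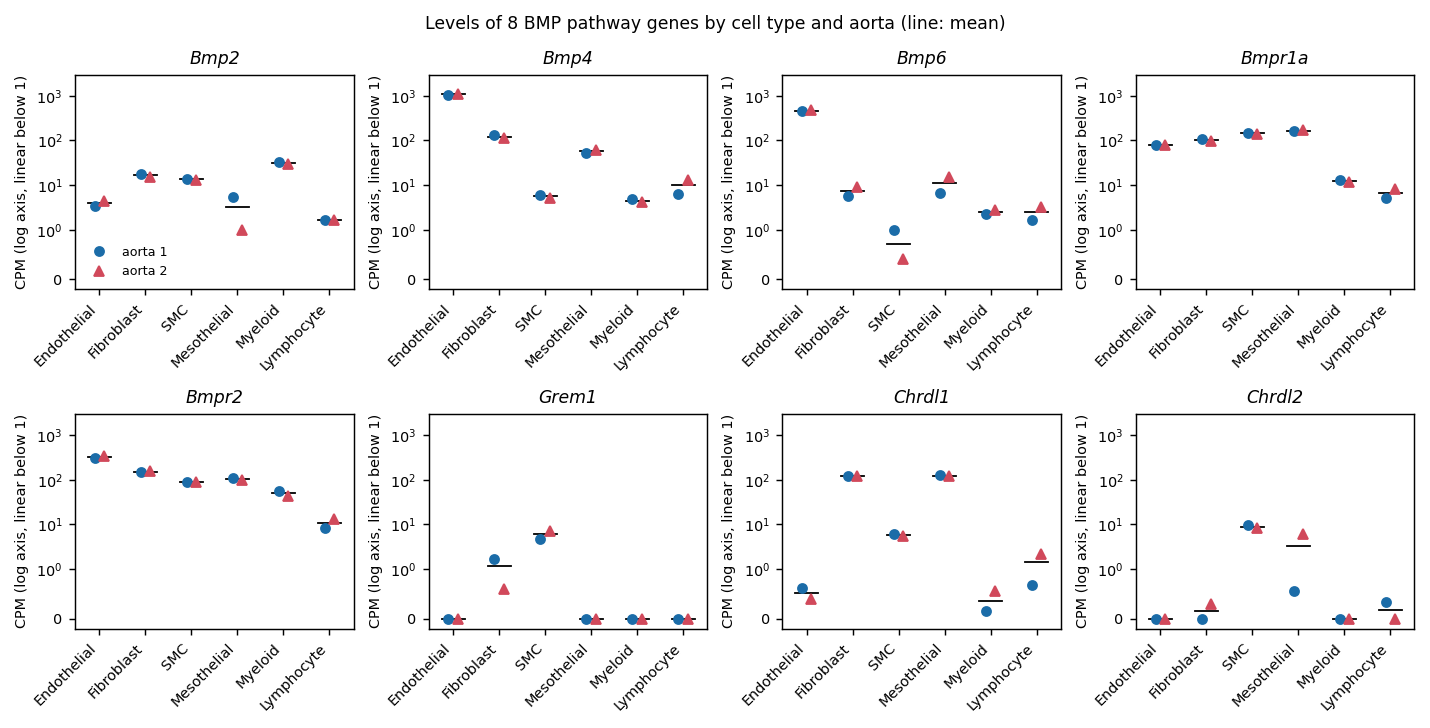
Levels of 8 genes (CPM, log axis that is linear below 1) in 6 cell types; each point is 1 aorta and each line the mean of 2. *Bmp4* and *Bmp6* stand highest in endothelial cells (1072 and 465 CPM on average), *Chrdl1* in mesothelial cells and fibroblasts, and *Grem1* and *Chrdl2* in SMCs.

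The cell types were then compared with edgeR on UMIs summed per aorta and type, and a gene was called at an adjusted p (Benjamini-Hochberg over 13966 genes) under 0.05 with an absolute log2 fold change over 1. *Grem1* and *Chrdl2* passed the expression filter only through SMCs, so that a difference from SMCs was given by the filter, and in comparisons with SMCs they are described without a test and left out of the counts. Endothelial cells line the lumen beside the SMC layers of the media, and the other 6 genes were all called between these cell types, against 29.9% of all genes. *Bmp6* (log2 fold change 9.0 ± 0.21 SE, adjusted p = 6.65e-18), *Bmp4* (7.36 ± 0.18, 7.13e-18) and *Bmpr2* (1.65 ± 0.12, 3.16e-10) were higher in endothelial cells. *Bmpr1a* (log2 fold change -1.08 ± 0.10, adjusted p = 1.48e-08), *Bmp2* (-2.0 ± 0.28) and *Chrdl1* (-3.60 ± 0.49) were lower. *Bmpr1a* stood just past the fold limit, and in DESeq2 it was under it (-0.88). *Grem1* and *Chrdl2* were at 0 in endothelial cells, so their difference is given as a bound. Against 3 counts over both aortas as the floor, *Grem1* was at least 10.9-fold and *Chrdl2* at least 17.0-fold higher in SMCs. Without SMC subcluster 4, a subcluster of mixed content described below that held 82 of the 166 *Grem1* UMIs, the bounds were 5.74-fold and 16.6-fold. In DESeq2, which was run without this filter, neither passed (adjusted p = 0.354 and 0.151).

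Between endothelial cells and fibroblasts, 5 of the 8 genes were called, against 25.9% of all genes. *Bmp6* (log2 fold change 5.89 ± 0.17 SE, adjusted p = 1.28e-16) and *Bmp4* (3.01 ± 0.14, 9.65e-14) were higher in endothelial cells, and *Chrdl1* (-7.89 ± 0.28, 7.95e-15) and *Bmp2* (-2.23 ± 0.28, 1.13e-06) were lower. For *Chrdl1* the 1995 UMIs in fibroblasts stood against 3 in endothelial cells, a ratio of the pooled levels of 228 (exact 95% counting interval 78.1 to 1109). *Grem1* was also called lower, but on 21 fibroblast UMIs against 0 (at least 2.40-fold, adjusted p = 0.0223), and this call was lost with a minimum of 5000 UMIs per cell, with cells typed by markers and in DESeq2 (adjusted p = 0.814, 0.144 and 0.604). *Bmpr2* missed the fold limit at 0.97 ± 0.12 with an adjusted p of 1.16e-06, and *Bmpr1a* stood at -0.49 ± 0.11. The summed level of the 7 endothelial markers, each with UMIs in fibroblasts, was 64.1 and 75.5 CPM there, 0.638% and 0.715% of that in endothelial cells, whereas *Bmp4* in fibroblasts was 12.8% and 9.87% of its endothelial level. For SMCs the corresponding shares were 0.532% and 0.529% for the markers and 0.583% and 0.464% for *Bmp4*.

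Between SMCs and fibroblasts, the main cells of the media and the adventitia, 3 of the other 6 genes were called, against 26.4% of all genes. *Bmp4* (log2 fold change -4.35 ± 0.17 SE, adjusted p = 9.04e-15), *Chrdl1* (-4.29 ± 0.13, 1.05e-15) and *Bmp6* (-3.11 ± 0.34, 1.17e-07) were lower in SMCs. *Chrdl2* had 258 UMIs in SMCs and 2 in fibroblasts, a ratio of 74.1 (exact 95% counting interval 20.3 to 615), and did not pass in DESeq2 (adjusted p = 0.231). The receptors differed by less than the fold limit, *Bmpr1a* being higher in SMCs (0.59 ± 0.09, adjusted p = 1.36e-05) and *Bmpr2* lower (-0.68 ± 0.12, 6.16e-05). *Bmp2* did not pass (-0.23 ± 0.16, adjusted p = 0.233). The fitted difference of *Grem1*, given without a test, was 2.29 toward SMCs, but its size and direction changed with how cells were assigned to types. When doublets were kept, or when BMP genes were allowed to shape the clusters, 57 of the 185 cells of SMC subcluster 4, described below, were counted as fibroblasts. The *Grem1* difference then turned to -0.76 and -0.94, also given without a test. With 5000 to 25000 UMIs per cell, 87 of the subcluster's 113 remaining cells were named small-vessel mural cells, a type that then held 33 and 51 *Grem1* UMIs, while fibroblasts held 1 and 0, and the difference was 4.97. It was 1.52 without aorta 2 and 3.59 without aorta 1.

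Mesothelial cells cover the outer surface of the aorta and were set against the fibroblasts beneath them. Of the 8 genes, 3 were called, against 24.4% of all genes. *Bmp4* (log2 fold change -1.31 ± 0.18 SE, adjusted p = 3.25e-06) and *Bmp2* (-2.29 ± 0.36, 2.64e-05) were lower in mesothelial cells. The *Bmp2* value was -4.10 without aorta 1, where it rests on the single mesothelial UMI of aorta 2. *Chrdl2* was called higher (3.92 ± 1.21, adjusted p = 0.0154) on 7 UMIs against 2, and missed the threshold in DESeq2 and with cells typed by markers (adjusted p = 0.467 and 0.133). *Chrdl1* stood at -0.16 ± 0.12 (adjusted p = 0.332), *Bmpr1a* at 0.50 ± 0.11 and *Bmpr2* at -0.75 ± 0.15.

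**Figure D2:**
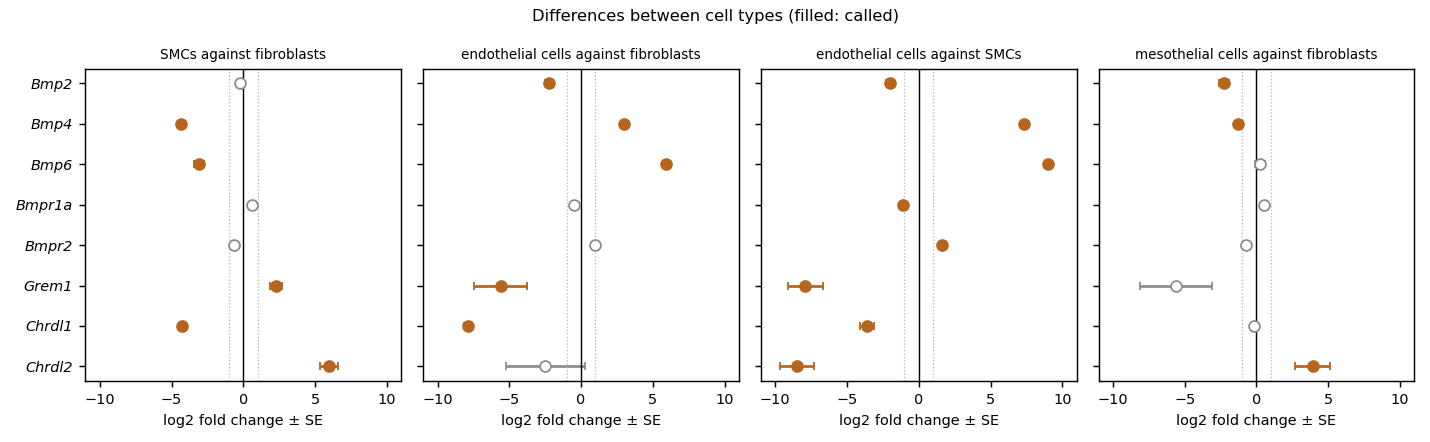
Log2 fold change (x axis, ± SE) of 8 genes in 4 comparisons of cell types; filled points passed the call limits, dotted lines mark a log2 fold change of 1 in either direction, and *Grem1* and *Chrdl2* points are fitted values that show no size where a cell type has 0 UMIs and no test where SMCs are compared. For endothelial cells against SMCs *Bmp6* lies farthest to the right at 9.0, and *Bmp2*, *Bmpr1a* and *Chrdl1* lie to the left.

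Within each main cell type, cells were assigned to subsets by a few fixed markers, none from the BMP system. Genes were tested for any difference over the subsets (edgeR F test, adjusted p under 0.05). The markers were chosen with earlier results of these data known, so the subsets are not independent of the counts tested. Among endothelial cells the subsets were set by *Emcn* and *Nkx2-3* (149 and 127 cells), by *Sema3g*, *Gkn3* and *Cyp4b1* (335 and 268 cells) and by the lymphatic genes *Prox1*, *Mmrn1*, *Ccl21a* and *Reln* (42 and 65 cells). All 4 genes of the set that could be tested differed over these subsets, against 21.7% of genes. *Bmp4* was at 1547 and 1750 CPM in the *Emcn* subset, 962 and 1163 CPM in the *Sema3g* subset and 26.3 and 71.6 CPM in the lymphatic subset (adjusted p = 4.45e-12). *Bmp6* ran in parallel, with 634 and 666, 430 and 483, and 19.7 and 57.3 CPM (adjusted p = 6.78e-10). The 3 subsets did not overlap between aortas for either ligand, but the order of the *Emcn* and *Sema3g* subsets was not kept over the subclusters described below. *Bmpr1a* fell from 77.9 and 97.1 CPM and 85.5 and 85.3 CPM in the first pair of subsets to 2 UMIs and 0 in the lymphatic subset (adjusted p = 7.14e-05). *Bmpr2* differed least (333 and 295, 312 and 362, and 171 and 286 CPM; adjusted p = 0.0368). With 5000 to 25000 UMIs per cell the calls of *Bmpr1a* and *Bmpr2* were lost (adjusted p = 0.993 and 0.966), and *Bmpr2* was not called in DESeq2 (adjusted p = 0.115).

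Leiden subclusters, drawn without the BMP genes and described with no test, separated the endothelial cells further. Subcluster 1, led by *Adra2a* and *Coch*, and subcluster 3, led by *Dcn*, *Emb* and *Sfrp2*, had the highest *Bmp4* (1797 and 1954, and 1790 and 2018 CPM) and *Bmp6* (634 and 625, and 823 and 770 CPM). Subcluster 3 also had the highest sum of the 7 fibroblast markers among these subclusters, 2472 and 1701 CPM against 1088 and 897 CPM in all endothelial cells, and a sum of the 7 endothelial markers of 7514 and 7596 CPM against 10055 and 10558 CPM. The part of this mixed content in its levels was not tested. Subcluster 4, led by *Eps8l2*, *Jag2* and *Sema3g*, had 285 and 131 CPM of *Bmp4* and 134 and 165 CPM of *Bmp6*. Subcluster 0, led by *Nkx2-3* of the *Emcn* subset, had 989 and 1076 CPM of *Bmp4* and 492 and 609 CPM of *Bmp6*. Both lay under subcluster 1, whose leading genes include *Cyp4b1* of the *Sema3g* subset. Subcluster 6, led by capillary genes such as *Car4*, *Gpihbp1* and *Cd36*, had 134 and 123 CPM of *Bmp4*, but with 39.4 and 20.5 CPM it had the highest *Bmp2* of the endothelium on only 5 and 2 UMIs. *Bmpr2* ranged less, from 173 to 496 CPM over the 8 subclusters with at least 10 cells in each aorta.

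Among fibroblasts 3 of the 5 genes tested differed over the marker-set subsets, against 15.9% of genes. *Bmp4* was at 222 and 193 CPM in cells with *Fmod*, *Vegfd* and *Pax1*, against 75.8 and 90.9 CPM in the *Myoc*, *Penk* and *Comp* subset, 121 and 89.9 CPM in the *Pi16* and *Dact2* subset and 134 and 79.3 CPM in the *Meox1*, *Tcf21* and *Dio2* subset (adjusted p = 1.48e-04). The *Pi16* subset was broad, with 845 and 669 of 1600 and 1100 fibroblasts. The *Fmod*, *Myoc* and *Meox1* subsets had 340 and 251, 114 and 58, and 82 and 17 cells. *Chrdl1* was at 142 and 217 CPM in the *Myoc* subset, 159 and 150 CPM in the *Fmod* subset and 127 and 111 CPM in the *Pi16* subset. In the *Meox1* subset it had 6 UMIs in 82 cells of aorta 1 and 0 in 17 cells of aorta 2 (adjusted p = 7.21e-06). *Bmp2* differed too (adjusted p = 0.0411), being lowest in the *Fmod* subset at 7.89 and 8.22 CPM, and missed the threshold with 5000 to 25000 UMIs per cell and in DESeq2 (adjusted p = 0.138 and 0.423). *Bmpr1a* and *Bmpr2* did not pass (adjusted p = 0.55 and 0.966). The levels of *Bmpr1a* stayed between 88.2 and 119 CPM over all 4 subsets.

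The fibroblast subclusters showed which cells carried each ligand and antagonist. Subcluster 0, led by *Fmod* and *Pax1*, had the highest *Bmp4* of the 7 subclusters with over 100 cells (244 and 233 CPM), with 155 and 137 CPM of *Chrdl1*. Subcluster 1, led by *Kitl*, *Comp* and *Meox2*, had the highest *Chrdl1* (267 and 253 CPM) and held 43.8% of all its UMIs. *Chrdl1* was itself among the leading genes of that subcluster. Subcluster 2, led by *Pla1a*, *Dact2* and *Dpp4*, had little *Bmp4* (29.0 and 35.9 CPM) but the highest *Bmp6* (24.7 and 27.4 CPM). Its *Chrdl1* was at 35.3 and 20.7 CPM, so the broad *Pi16* subset does not give the levels of these cells. Subcluster 5 (156 cells) was counted with the fibroblasts although *Tagln*, *Acta2* and *Myh11* led it, with SMC markers at 17384 and 23808 CPM and fibroblast markers at 8615 and 8919 CPM. Over all fibroblasts *Bmp4* and *Chrdl1* were found together in 217 of 1600 and 146 of 1100 cells, 35.8% and 38.5% of the cells with *Bmp4*, beside 30.2% and 30.9% of all fibroblasts with *Chrdl1*.

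SMCs of the thoracic aorta have several embryonic origins and keep regional transcription factors, which were used as marks. Of the genes tested, *Grem1* and *Chrdl2* passed the filter only through the *Dlx* subset and are described without a test. Of the other 5, 2 differed over the subsets with *Hand2* or *Tbx20* (501 and 263 cells), *Dlx5* or *Dlx6* (351 and 306 cells) and *Hoxa7*, *Hoxb7* or *Hoxc6* (314 and 261 cells), against 24.9% of genes. *Chrdl2* was at 38.1 and 27.0 CPM in the *Dlx* subset (109 and 66 UMIs), with 1 and 1 UMI in the *Hand2* subset and 1 and 0 in the *Hox* subset. *Grem1* was at 19.6 and 8.58 CPM in the *Dlx* subset (56 and 21 UMIs), with 2 and 0 UMIs in the *Hand2* subset and none in the *Hox* subset. *Bmp2* had the opposite pattern, at 5.59 and 6.54 CPM in the *Dlx* subset against 16.4 and 14.6 CPM in the *Hand2* subset and 15.2 and 17.1 CPM in the *Hox* subset (adjusted p = 2.01e-04). *Chrdl1* was low throughout, with at most 8.58 CPM, and lowest in the *Hand2* subset (0.843 and 0.417 CPM; adjusted p = 5.68e-04). The receptors did not pass. *Bmpr1a* was at 162 and 157, 149 and 136, and 140 and 143 CPM in the *Dlx*, *Hand2* and *Hox* subsets (adjusted p = 0.932), and *Bmpr2* at 104 and 99.7, 90.4 and 83.7, and 88.9 and 93.0 CPM (adjusted p = 0.972).

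**Figure D3:**
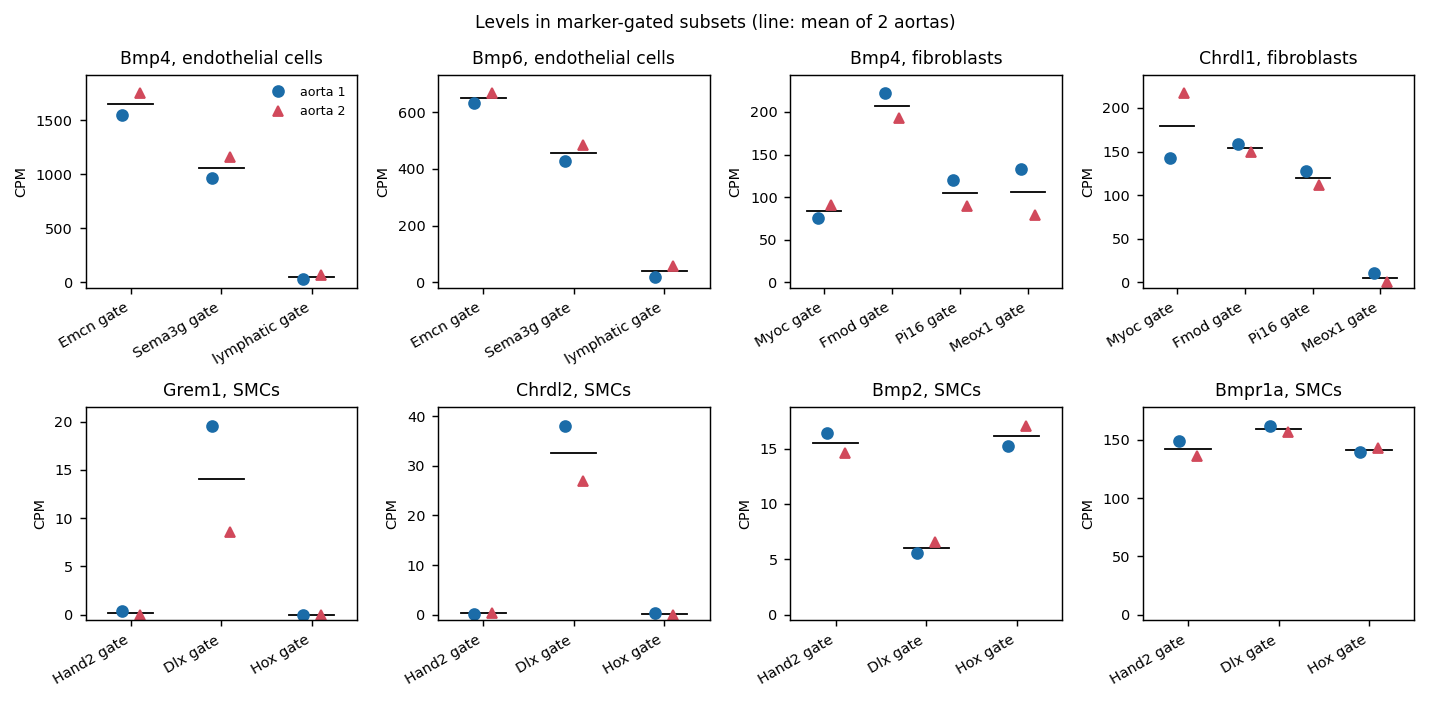
Levels (CPM, linear axis) of members in marker-set subsets of endothelial cells, fibroblasts and SMCs; each point is 1 aorta and each line the mean of 2. *Grem1* and *Chrdl2* are near 0 outside the *Dlx* subset, where *Bmp2* is lowest, while *Bmpr1a* lies between 136 and 162 CPM in all 3 SMC subsets.

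*Grem1* and *Chrdl2* were both found in SMC subcluster 2 and were compared cell by cell. In this subcluster, led by *Adamtsl1*, *Hhip*, *Dlx6* and *Msx2* (392 and 383 cells), *Grem1* was found in 34 and 19 cells and *Chrdl2* in 80 and 57 cells, while 0 and 2 cells held both. Thus *Chrdl2* was found in 0% and 10.5% of the cells with *Grem1*, beside 20.4% and 14.9% of all cells of the subcluster. The cells with *Grem1* were the deeper, with a median of 9336 and 8966 UMIs against 7391 and 6903 UMIs in those with *Chrdl2*. *Myh11* was at 3924 and 4845 CPM in the cells with *Grem1* and 2515 and 2457 CPM in those with *Chrdl2*, with 3541 and 3412 CPM in the cells that held neither. *Acta2* was at 13552 and 12654 CPM in the cells with *Grem1*, 7899 and 8448 CPM in those with *Chrdl2* and 11551 and 12845 CPM in the cells with neither, so only the cells with *Chrdl2* stood apart in both aortas. The fibroblast marker *Dcn* was at 18.5 and 23.9 CPM in the cells with *Grem1*, 70.9 and 51.8 CPM in those with *Chrdl2* and 41.1 and 54.7 CPM in the rest. *Lum*, another, was highest in the cells with neither (15.9 and 18.8 CPM). *Dlx5* was similar in the cells with *Grem1* and those with *Chrdl2* (117 and 101 CPM, against 112 and 148 CPM). These cells were picked by their own transcripts and are described without a test.

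*Grem1* had a further site. Subcluster 4 of the SMCs, led by *Nrn1*, *Lum*, *Mab21l2* and *Scin*, held 19 *Grem1* UMIs in aorta 1 (28.0 CPM, 7 of 118 cells) and 63 in aorta 2 (157 CPM, 20 of 67 cells). Fibroblast subcluster 6, led by *Mab21l2*, *Chrm2* and *Tfap2b*, held 16 and 4 UMIs (31.4 and 23.3 CPM) in 6 of 80 and 3 of 22 cells. Few cells carried these levels: the 3 cells with the most *Grem1* held 12 of 16 and 4 of 4 UMIs in fibroblast subcluster 6, and 14 of 19 and 27 of 63 in SMC subcluster 4. These 2 subclusters and SMC subcluster 2 contained all but 2 of the 187 UMIs. The cells of SMC subcluster 4 are of mixed content: the 7 fibroblast markers summed to 2368 and 2805 CPM, compared with 758 and 747 CPM in SMCs as a whole and 1051 and 1026 CPM in subcluster 2. Their 7 SMC markers summed to 21414 and 25265 CPM, near the 23929 and 25127 CPM of subcluster 2 and below the 41862 and 39685 CPM of all SMCs. The share of *Grem1* that such cells carry differed between aortas, and without them *Grem1* in SMCs was at 3.69 and 2.09 CPM, so the aorta with the higher level changed. The part that mixed identity has in this result was not tested. *Bmp2* was at 54.9 and 40.7 CPM in fibroblast subcluster 6. In SMC subcluster 4 it was at 39.8 CPM in aorta 1 but 15 CPM (6 UMIs) in aorta 2, beside 16.0 and 15.6 CPM in SMC subcluster 0. It was highest among SMCs in subcluster 6 (44.3 and 50.7 CPM), which was led by small-vessel genes such as *Pln*, *Gja4* and *Notch3*.

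The *Grem1* promoter is shown because the gene was limited to so few cells. Capitals mark GGCGCC, a palindromic GC-rich element bound by SMAD1 and SMAD5.
Grem1, chr2:113758599-113758898, minus strand: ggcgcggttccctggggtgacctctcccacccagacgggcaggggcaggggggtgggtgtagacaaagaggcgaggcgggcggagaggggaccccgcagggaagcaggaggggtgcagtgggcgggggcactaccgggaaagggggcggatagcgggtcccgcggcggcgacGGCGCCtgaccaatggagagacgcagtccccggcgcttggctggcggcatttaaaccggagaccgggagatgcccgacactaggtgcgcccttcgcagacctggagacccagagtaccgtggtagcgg
It held 1 match, as did the windows of *Bmpr1a* and *Bmpr2*. Those of *Bmp4*, *Bmp5* and *Bmp6* held none, and 11.9% of all promoters held this motif.

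**Figure D4:**
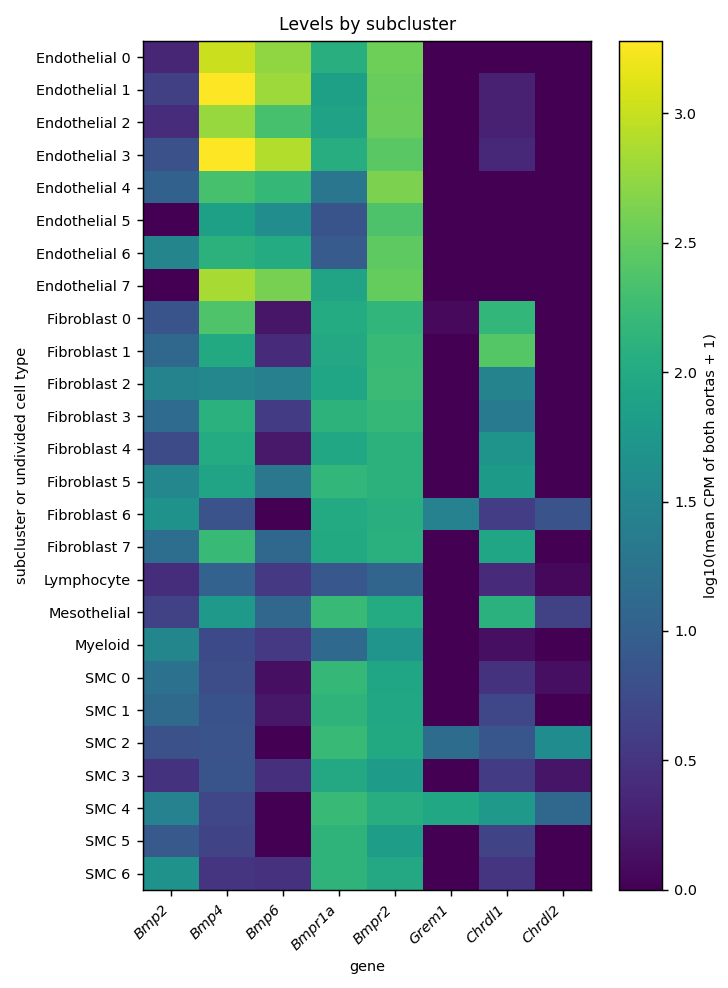
Mean level of 8 genes (columns, colour as log10 of CPM + 1) in 26 subclusters and undivided cell types (rows) with at least 10 cells in each aorta. *Grem1* is brightest in SMC 4, Fibroblast 6 and SMC 2, and *Bmp4* is brightest in Endothelial 1 and 3.

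Across 27 such groups (erythroid cells included), the genes most like each member by Pearson correlation of log2(CPM + 1) are given as a description, since groups share libraries and types. For *Bmp6* these were *Cenpt* (r = 0.93) and *Vwf* (0.93), which encodes von Willebrand factor. For *Bmp4* they were *Tmem158* (0.93) and *Heg1* (0.92), for *Bmpr2* *Cpd* and *Tnfaip1* (both 0.94), for *Bmpr1a* *Ptgis* (0.89), which encodes prostacyclin synthase, and *Cpq* (0.88), and for *Chrdl1* *F3* (0.91), the tissue factor gene, and *Gpc3* (0.90). *Bmp2* had the weakest partners, *Mamdc2* (0.77) and *Mitf* (0.70).

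The remainder of a list of 67 BMP pathway genes places these members. Of the other 58 genes, 46 were tested, and each count leaves out those that passed the filter only through 1 of the 2 types compared. In SMCs against fibroblasts 10 of 44 were higher and 14 lower (26.4% of all genes were called), in endothelial cells against fibroblasts 8 and 15 of 43 (25.9%), in endothelial cells against SMCs 8 and 12 of 43 (29.9%), and in mesothelial cells against fibroblasts 7 and 16 of 44 (24.4%). Among the other ligands, *Gdf10*, which encodes the BMP3-like GDF10, was at 679 and 582 CPM in fibroblasts and at most 35.8 CPM in the other 5 types (log2 fold change of SMCs against fibroblasts -4.13 ± 0.16 SE, adjusted p = 8.41e-15). *Bmp3* was at 22.1 and 34.7 CPM in fibroblasts and 19.6 and 16.5 CPM in SMCs. *Gdf6* was highest in endothelial cells at 12.9 and 15.1 CPM, and *Bmp7* reached at most 6.67 CPM in these 6 types.

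Among the other receptors, *Bmpr1b*, the gene of the type IB BMP receptor, was highest in SMCs, at 39.9 and 44.9 CPM against 5.95 and 5.10 CPM in fibroblasts (2.98 ± 0.18, adjusted p = 6.28e-11) and 0 in endothelial cells. Mesothelial cells had 15 and 28.4 CPM, also called higher than fibroblasts (1.63 ± 0.29, adjusted p = 1.54e-04). It was at 113 and 107 CPM in the *Dlx* subset, against 22.1 and 32.1 CPM in the *Hand2* subset and 19.2 and 16.2 CPM in the *Hox* subset (adjusted p = 3.00e-09). *Acvrl1*, which encodes the endothelial type I receptor ALK1, had its highest level in endothelial cells, 159 and 187 CPM, with SMCs at 20.8 and 24.2 CPM (2.74 ± 0.13, adjusted p = 2.98e-13), though fibroblasts had 107 and 125 CPM. *Acvr1* was likewise highest in endothelial cells (65.0 and 68.4 CPM), and *Acvr2a* reached 22.3 and 23.7 CPM in fibroblasts. The co-receptor *Eng*, endoglin, was at 491 and 488 CPM in endothelial cells. *Bambi*, a pseudoreceptor gene, was at 86.8 and 77.4 CPM in SMCs and 59.3 and 66.5 CPM in endothelial cells, and *Rgma* and *Rgmb* were highest in fibroblasts at 29.1 and 29.1 and at 43.1 and 44.3 CPM.

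The antagonists with the highest levels were other than the 3 members. Without *Grem1* and *Chrdl2*, 14 of the 20 antagonists on the list were tested in endothelial cells against SMCs, and 6 (with *Chrdl1*) were lower and 1 higher in endothelial cells, where 29.9% of all genes were called (2213 higher and 1959 lower). *Sost*, sclerostin, better known as a Wnt inhibitor, was at 818 and 976 CPM in SMCs and 25.9 and 29.1 CPM in fibroblasts (5.10 ± 0.21, adjusted p = 2.39e-14). *Fstl1* was at 1194 and 1465 CPM in fibroblasts, 976 and 1026 CPM in the endothelium and, in SMCs, 664 and 630 CPM. *Nbl1* was at 433 and 469 CPM in fibroblasts and 404 and 419 CPM in mesothelial cells, and *Twsg1* at 437 and 400 CPM in mesothelial cells. Within SMCs *Nbl1*, like *Grem1* and *Chrdl2*, was highest in the *Dlx* subset, at 246 and 216 CPM against 44.9 and 62.5 CPM in the *Hand2* subset (adjusted p = 5.13e-10).

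Of the target genes on the list, the 4 with the highest levels over all analysed cells pooled are the *Id* genes. *Id1* was at 503 and 497 CPM in mesothelial cells, 241 and 244 CPM in the endothelium, 141 and 223 CPM in SMCs and 64.1 and 59.1 CPM in fibroblasts (mesothelial cells against fibroblasts 2.81 ± 0.16, adjusted p = 9.59e-12). *Id3* was at 528 CPM or more in each of these types, and none of its 4 comparisons was called. *Id2* was highest in SMCs (258 and 302 CPM), as was *Id4* (120 and 126 CPM). *Smad7*, whose product degrades type I receptors, was at 195 and 239 CPM in endothelial cells against 56.0 and 69.9 CPM in SMCs (1.58 ± 0.13, adjusted p = 1.53e-09). In the lymphatic subset of the endothelial cells *Smad7* had 1 UMI in each aorta. *Smad1*, *Smad4* and *Smurf2* were called in none of the 3 comparisons among SMCs, fibroblasts and endothelial cells. In mesothelial cells against fibroblasts *Smad1* (-1.01 ± 0.21, adjusted p = 6.21e-04) and *Smurf2* (-1.48 ± 0.15, 5.25e-08) were lower.

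**Figure D5:**
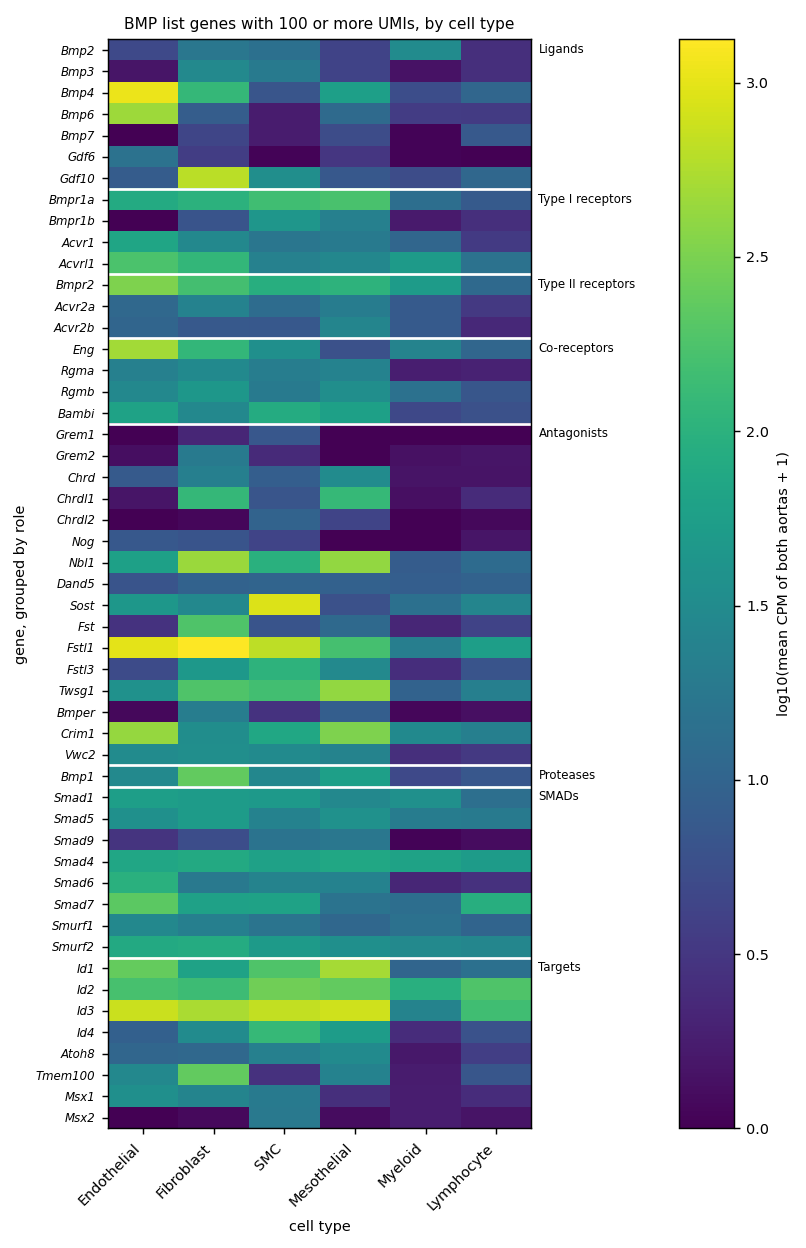
Mean level (colour, log10 of CPM + 1) of the 51 listed BMP pathway genes with 100 or more UMIs (rows, by role) in 6 cell types (columns). *Bmp4* and *Bmp6* are bright in the endothelial column, *Sost* in the SMC column and *Gdf10* in the fibroblast column.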

How the data were processed

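Raw UMI counts per gene and cell were used as deposited. Per the file headers and labels, the authors made these counts with Cell Ranger 4.0.0 from 10x 3′ libraries and the mouse genome mm10 with eGFP and tdTomato added, and replicates were not pooled. The submitters' notes also name Seurat 4.0. Strand use in counting was not given in the sources used here. Of the 9 genes, *Bmp4*, *Bmp5*, *Bmp6*, *Bmpr1a* and *Bmpr2* overlap other annotated genes (GENCODE M21, GRCm38), mostly antisense ones, so their counts carry this uncertainty.

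Cells with more than 200 genes, 1000 to 25000 UMIs and under 10% mitochondrial counts were kept (6744 and 4698 of 8947 and 6263 deposited cells; the labels give 6278 and 4300 after filtering). Scrublet then removed 201 (2.98%) and 89 (1.89%) doublets. Cells of both aortas were clustered (scanpy 1.11.5, 2000 variable genes, 30 components, 15 neighbours, Leiden resolution 1, and 0.5 for subclusters) without the 67 BMP list genes and named from marker lists, so SMC means SMC-like and so on. A total of 78 cells stayed unnamed. A *Dlx6* and *Msx2* cluster that scored for mural markers was counted as SMCs, a choice made after its leading genes had been seen. Cells entered a subset with at least 2 UMIs of its markers (SMCs 1) and more than of any other subset's.

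UMIs were summed per aorta and type and tested with edgeR 4.0.16 in R 4.3.3 (quasi-likelihood test, TMM, filterByExpr, Benjamini-Hochberg adjustment over all genes tested). SE is the absolute log2 fold change over the square root of F. The tests were also run on counts simulated with known changes and independent samples, as a check of the code only. Each aorta gave every cell type, so the aorta number pairs samples of the same animal. With it as a block, no call of a member changed. P-values measure the spread between 2 animals. The members, gene lists and tests were chosen with earlier results of these data known. All 9 members are named. Of the rest of the list the 4 genes per role with the highest level over all analysed cells pooled are named, apart from genes named as leading a subcluster. This choice depends on the shares of cell types. It leaves out genes of scarcer types, such as the ligand gene *Gdf2*, at 26.7 and 37.5 CPM in mesothelial cells. For likeness, members and partners needed at least 500 UMIs.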

Additional observations from a re-analysis of the deposited data

How the results depend on the processing

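Over the 8 genes and 4 comparisons of cell types, 315 log2 fold changes were recomputed under the alternatives: no low-count filter, the replicate block, 5000 to 25000 UMIs per cell, doublets kept, BMP genes allowed in the clustering, cells typed by markers, DESeq2, either aorta left out, and, added after the data had been seen, subclusters led by markers of another class left out. Of these, 292 were counted as the same, 10 fell under the threshold, 3 rose over it, 5 reversed and 5 moved by more than the spread between the aortas. The same means that direction and side of the threshold were kept. Values with an aorta left out have no test and were the same if within the SD of the 2 such values. That is nearly given with 2 aortas, so the 292 overstates stability. Counts here include *Grem1* and *Chrdl2*. The replicate block gave the same counts of calls as without it. These were 5, 5, 8 and 3 for SMCs against fibroblasts, endothelial cells against fibroblasts, endothelial cells against SMCs and mesothelial cells against fibroblasts. In the endothelial, fibroblast and SMC subsets they were 4, 3 and 4. Without the calls that the filter gave, the main fit had 3, 5, 6 and 3, and 4, 3 and 2. The reversed values were those of *Grem1* in SMCs against fibroblasts (-0.76 with doublets kept, -0.94 with BMP genes in the clustering), *Chrdl2* in endothelial cells against fibroblasts (1.28 with doublets kept), and *Bmp6* (-0.012) and *Chrdl1* (0.072) in mesothelial cells against fibroblasts with cells typed by markers. The last 3 were not called in any case. DESeq2 called 3 members in SMCs against fibroblasts and 5 in endothelial cells against SMCs, losing *Chrdl2*, *Grem1* and the fold limit of *Bmpr1a* (-0.88), and gave no adjusted p for *Grem1* in the former. The cause was not tested. With 5000 to 25000 UMIs per cell, 2 members differed over the endothelial subsets, and 3 in DESeq2. With subclusters of mixed content left out (422 cells), *Grem1* no longer passed the expression filter. The bounds of *Grem1* and *Chrdl2* without SMC subcluster 4 were also added after the data had been seen.

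With 2 aortas, leaving out either leaves no test, so those values show direction only. Depth limits what can be said of *Grem1*, *Chrdl2* and *Bmp5*: a count of 0 allows up to 0.527 CPM in endothelial cells and 1.08 CPM in mesothelial cells. Shares of cells with a UMI depend on depth, as the thinned and unthinned values show.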
